A study of Caenorhabditis elegans with 36 samples.

Results

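The genes described here are those with which Caenorhabditis elegans makes, stores and clears dopamine and sets the identity of its dopaminergic neurons, together with a dopamine receptor. They were taken by name, as cat-4, ptps-1, cat-2, bas-1, cat-1, dat-1, ceh-43, ast-1 and dop-4. All 9 were found among the 46778 gene identifiers that each of the 36 libraries counts.

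Whole-animal RNA was sequenced from PD animals and from wild type animals, in each case with krill oil and without it, at adult day 1, 3 and 6. PD animals are strain BY273, which carries GFP and α-synuclein, both driven in dopaminergic neurons by the dat-1 promoter, and wild type animals are strain N2. Krill oil was mixed into the plates at 0.5 µl per ml of medium from the L4 stage on. Each of the 12 groups of strain, diet and day holds 3 libraries. No group received FdUrd, and from day 2 on the adults of every group were washed and passed over a nylon filter daily. The labels enter the same genotype for both strains and no identifier counts a transgene, so the strain labels were not checked from the counts. The study calls the libraries of a group biological replicates, the labels number them without naming the cultures, and p-values measure the spread between them. Because RNA came from whole animals, fewer cells of a type and less RNA per cell cannot be told apart.

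Dopamine in the worm is made by a small set of sensory neurons that feel touch and the texture of food, and it slows the animal when it enters a bacterial lawn. GTP cyclohydrolase (CAT-4) and 6-pyruvoyl tetrahydropterin synthase (PTPS-1) build tetrahydrobiopterin, the cofactor with which tyrosine hydroxylase (CAT-2) turns tyrosine into L-DOPA, and the decarboxylase BAS-1 then makes dopamine. CAT-1 loads monoamines into synaptic vesicles and DAT-1 takes dopamine back up, while the homeobox factor CEH-43 and the ETS factor AST-1 switch these genes on together in the dopaminergic neurons. CAT-2 and DAT-1 mark those neurons, whereas CAT-4, BAS-1 and CAT-1 also serve serotonergic neurons, and tetrahydrobiopterin is also needed for an intact cuticle.

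The genes lie on 5 chromosomes of WBcel235. The positions are chromosome V 10564880 to 10566464 for cat-4, chromosome I 4652145 to 4652906 for ptps-1 and chromosome II 257819 to 261074 for cat-2. On chromosome III are bas-1 at 5612274 to 5614660, dat-1 at 9242975 to 9246802 and ceh-43 at 4446638 to 4449943. The gene ast-1 spans 4127837 to 4135359 on chromosome II, and on chromosome X cat-1 spans 5705690 to 5710737 and dop-4 spans 1295253 to 1298830. The whole of cat-2 lies inside scc-2, a cohesin loader gene on the opposite strand with up to 10956 counts in a library, although the exons of the pair share 0 bases. Exons of cat-4 share 63 bases with vps-54 and those of ast-1 share 17 bases with rhgf-2, both on the opposite strand, and whether counting used strand is not given in the sources used here.

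The total count per library ran between 16488713 and 34605080 (median 24785463), and ribosomal RNA genes took 5.31% to 24.5% of them. Levels are given as CPM, the counts scaled to a common library size, after TMM scaling over the 36 libraries. Replicate 3 of the PD animals on krill oil at day 1 and replicate 3 of the wild type controls of day 6 stood apart from the other replicates of their groups, with a chi-square per degree of freedom of 156 to 266 and of 127 to 197 against at most 66.5 in all other replicate pairs, and they had the highest ribosomal RNA shares (24.5% and 23.5%, against at most 13.6% elsewhere). The 3 wild type controls of day 6 also stood apart from the other groups in genes of all neurons, as given with the day 6 results. The dopaminergic markers stood close to the lower limit of detection at this depth. The tyrosine hydroxylase gene cat-2 had 2 to 25 counts per library (median 8.5) and under 10 in 22 of the 36 libraries. The vesicle transporter cat-1 had 3 to 39 counts and under 10 in 4 libraries, and dat-1 had 12 to 68. The counts were 16 to 105 for ast-1, 17 to 136 for dop-4, 103 to 268 for bas-1, 107 to 326 for ptps-1, 157 to 745 for ceh-43 and 512 to 1937 for cat-4.

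Per kilobase of exon the order of mean levels was cat-4 (54.1 CPM per kb), ptps-1 (17.96), ceh-43 (13.5), bas-1 (4.55), dop-4 (1.28), ast-1 (1.17), dat-1 (0.605), cat-1 (0.379) and cat-2 (0.158). The cofactor genes thus stood far above the genes that only dopaminergic or monoaminergic neurons use. Group means of dop-4 and ast-1 spanned 0.792 to 2.71 and 0.366 to 2.00 CPM per kb, so these neighbours did not separate, and those of dat-1 (0.327 to 1.12) and cat-1 (0.160 to 0.700) overlapped as well.

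**Figure D1:**
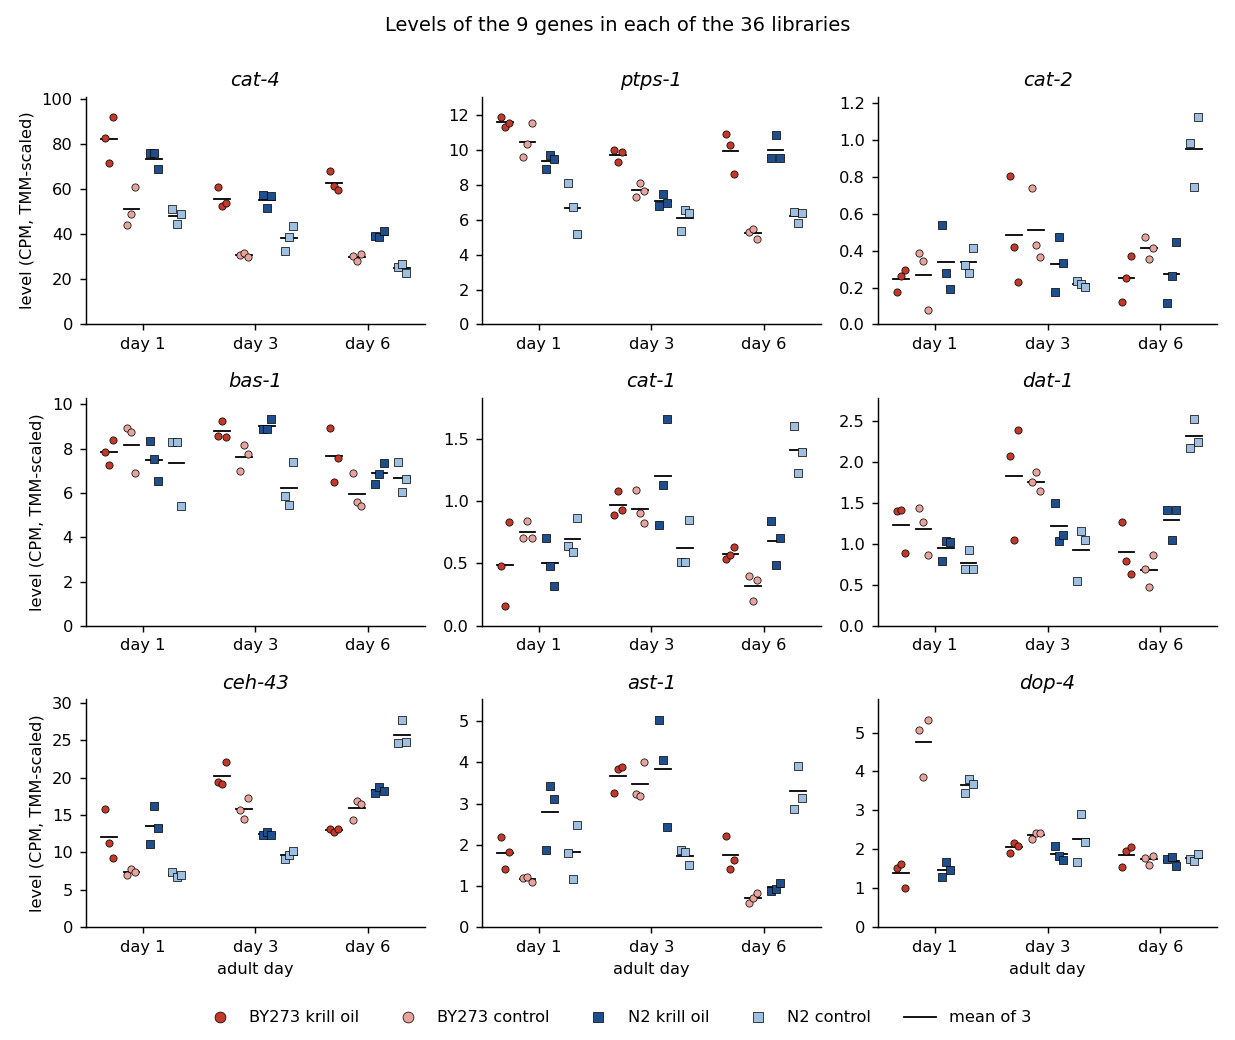
Levels of the 9 genes in CPM (vertical axes start at 0 and differ between panels) at adult day 1, 3 and 6, with a point for each library and a line for the mean of 3. With krill oil cat-4 lay above its control in both strains at every day, dop-4 was high only in the controls of day 1, and cat-2, cat-1, dat-1 and ceh-43 had their highest group mean in wild type controls of day 6.

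Tests are edgeR quasi-likelihood tests over all genes that passed the count filter, a gene is called at an adjusted p (Benjamini-Hochberg) under 0.05 at any size of change, and values after ± are SE for log2 fold changes and SD for levels (n = 3). Krill oil was set against control in each strain at each day, to ask which of the genes follow the diet. In PD animals, 3 of 8 tested genes were called at day 1, where 15.5% of all genes tested were called, 3 of 9 at day 3 (41.2% of all) and 3 of 8 at day 6 (36.9% of all). Among wild type animals 3 of 8 were called at day 1 (7.36% of all), 4 of 8 at day 3 (36.1% of all) and 7 of 9 at day 6 (63.5% of all). The 7 include cat-2, which passed the filter there through the control counts, so its direction was favoured. The median log2 fold change of the genes tested was 0.11, 0.08 and 0.65 in PD animals at day 1, 3 and 6, and that of all genes was 0.01, 0.00 and 0.05. For wild type animals it was 0.39, 0.45 and -0.48, and that of all genes was -0.01, 0.00 and -0.02. Without PD krill oil day 1 replicate 3 the calls with krill oil in PD animals of day 1 were the same 3, at 0.59 for cat-4, 0.89 for ceh-43 and -1.59 for dop-4.

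**Figure D2:**
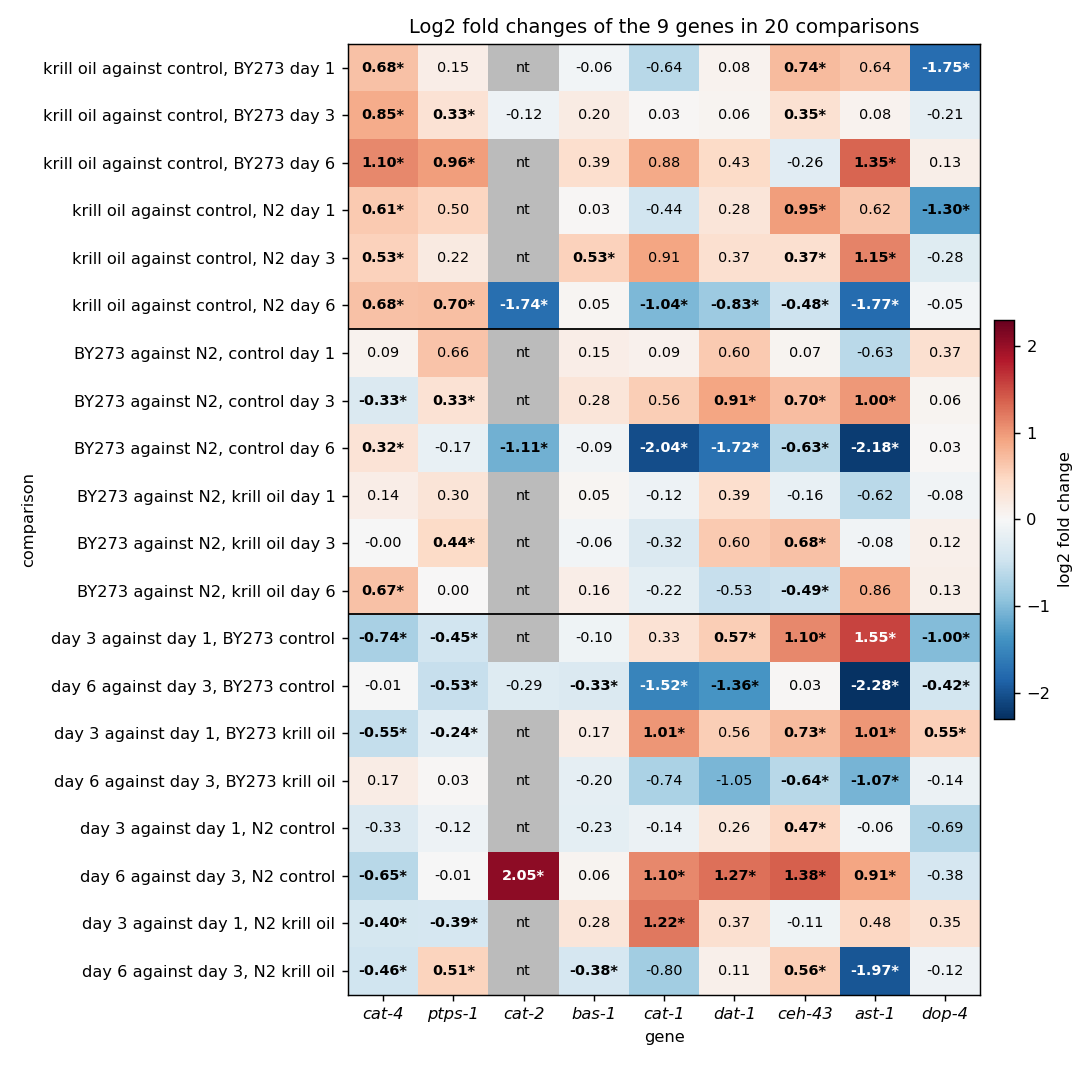
Log2 fold changes of the 9 genes (columns) in the 20 pairwise comparisons (rows), with red for higher and blue for lower in the condition named first, an asterisk for an adjusted p under 0.05 and nt for a gene whose counts were too low to be tested. The column of cat-4 is positive with krill oil in all 6 comparisons, while cat-2 could be tested in only 5 of the 20.

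The cofactor gene cat-4, which encodes the first enzyme of tetrahydrobiopterin synthesis, was the only gene of the 9 that was called higher with krill oil in both strains at every day. In PD animals of day 6 it had 68.0, 61.2 and 59.5 CPM with krill oil, against 30.5, 28.2 and 31.3 CPM in control, a log2 fold change of 1.10 ± 0.07, adjusted p = 2.64e-05. At day 1 the values were 82.7, 71.6 and 91.8 CPM against 44.2, 48.9 and 60.9 CPM (0.68 ± 0.11, adjusted p = 0.0019), and at day 3 60.9, 52.6 and 53.7 CPM against 30.7, 31.5 and 29.9 CPM (0.85 ± 0.06, adjusted p = 2.36e-07). No krill oil library of PD animals fell within the range of its control at any day. Wild type animals of day 1 had 76.1, 75.8 and 68.8 CPM with krill oil, against 51.2, 44.7 and 48.8 CPM in control (0.61 ± 0.07, adjusted p = 0.00224). At day 3 the levels were 57.6, 51.6 and 57.0 CPM against 32.4, 38.8 and 43.7 CPM (0.53 ± 0.10, adjusted p = 0.00283), and at day 6 39.4, 38.6 and 41.5 CPM against 25.4, 26.8 and 22.96 CPM (0.68 ± 0.06, adjusted p = 1.08e-06). Here too the diets did not overlap at any day. The rise was larger in PD than in wild type animals at day 6, by 0.41 ± 0.10, adjusted p = 0.00267, whereas the differences at day 1 and day 3 did not pass the test (0.06 ± 0.15, adjusted p = 0.944 and 0.32 ± 0.13, adjusted p = 0.118). With DESeq2 the day 6 difference was not called (0.23, adjusted p = 0.0824). Each of the 6 rises was called with every single library left out in turn.

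Between strains cat-4 was higher in PD animals of day 6, by 0.67 ± 0.07, adjusted p = 0.00171 with krill oil and by 0.32 ± 0.07, adjusted p = 0.000546 in control. In the controls of day 3 it was lower in PD animals (-0.33 ± 0.09, adjusted p = 0.0221), a call lost without PD control replicate 1 (adjusted p = 0.0668) or replicate 3 (adjusted p = 0.0726). With age cat-4 went down. In PD animals it was lower at day 3 than at day 1 both with krill oil (-0.55 ± 0.08, adjusted p = 0.00031) and in control (-0.74 ± 0.10, adjusted p = 6.66e-05), and day 6 against day 3 passed the test on neither diet (0.17 ± 0.08, adjusted p = 0.148 and -0.01 ± 0.05, adjusted p = 0.825). Wild type animals continued to lose it, with -0.40 ± 0.06, adjusted p = 0.000981 from day 1 to day 3 and -0.46 ± 0.06, adjusted p = 0.00049 from day 3 to day 6 on krill oil. In wild type controls the later step passed (-0.65 ± 0.10, adjusted p = 0.000157) and the earlier one did not (-0.33 ± 0.11, adjusted p = 0.0834).

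The next enzyme of the cofactor pathway, ptps-1, rose with krill oil at the later days. At day 6 it had 10.9, 10.3 and 8.64 CPM in PD animals on krill oil, against 5.32, 5.48 and 4.90 CPM in their controls (0.96 ± 0.13, adjusted p = 0.000487). Wild type animals of day 6 had 9.51, 10.9 and 9.56 CPM with krill oil, against 6.44, 5.80 and 6.37 CPM in control (0.70 ± 0.10, adjusted p = 5.59e-05). In both strains every krill oil library lay above every control. At day 3 the rise passed in PD animals (0.33 ± 0.08, adjusted p = 0.00718) and did not pass in wild type animals (0.22 ± 0.12, adjusted p = 0.199), but the strains were not shown to differ (0.12 ± 0.14, adjusted p = 0.636). At day 1 it passed in neither strain (0.15 ± 0.10, adjusted p = 0.404 in PD and 0.50 ± 0.17, adjusted p = 0.136 in wild type animals). The effect was larger at day 6 than at day 3 in PD animals, by 0.59 ± 0.14, adjusted p = 0.00463, and in wild type animals, by 0.47 ± 0.19, adjusted p = 0.0461, where the call was lost with the replicate number as a block (adjusted p = 0.0538) and when only all-zero genes were removed (adjusted p = 0.0678).

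In PD controls ptps-1 fell with age, with group means of 10.5 ± 0.995, 7.68 ± 0.383 and 5.23 ± 0.300 CPM at day 1, 3 and 6. Both steps passed, with -0.45 ± 0.09, adjusted p = 0.00147 and then -0.53 ± 0.09, adjusted p = 0.000223. On krill oil the PD means were 11.6 ± 0.279, 9.72 ± 0.376 and 9.95 ± 1.18 CPM. There the later step was 0.03 ± 0.12, adjusted p = 0.882, and the earlier one of -0.24 ± 0.09, adjusted p = 0.0382 was lost with any 1 of the 6 libraries left out, at adjusted p = 0.0582 (without krill oil day 1 replicate 3) to 0.125 (without krill oil day 3 replicate 2). On krill oil, wild type animals gained it again from day 3 to day 6 (0.51 ± 0.11, adjusted p = 0.00766) after a lower day 3 (-0.39 ± 0.10, adjusted p = 0.0177), a call lost without krill oil day 3 replicate 1 (adjusted p = 0.0576) or 3 (adjusted p = 0.0532) or day 1 replicate 2 (adjusted p = 0.0578). PD animals of day 3 had more ptps-1 than wild type animals on krill oil (0.44 ± 0.10, adjusted p = 0.0141), which was lost without PD krill oil replicate 1 (adjusted p = 0.054) or 3 (adjusted p = 0.0552). In control at day 3 the difference was 0.33 ± 0.11, adjusted p = 0.0346, lost without PD control replicate 1, 2 or 3 (adjusted p = 0.0634, 0.114 and 0.0827) or wild type control replicate 1 (adjusted p = 0.125).

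The decarboxylase gene bas-1 was the steadiest of the 9, with group means of 5.96 to 9.04 CPM (highest over lowest 1.52). It was called with krill oil only in wild type animals of day 3, which had 8.90, 8.87 and 9.35 CPM, against 5.85, 5.44 and 7.39 CPM in control (0.53 ± 0.13, adjusted p = 0.0119). The diets did not overlap, but without wild type control replicate 1 the call was lost (adjusted p = 0.0519). In PD animals the change was -0.06 ± 0.13, adjusted p = 0.818, 0.20 ± 0.09, adjusted p = 0.11 and 0.39 ± 0.15, adjusted p = 0.0715 at day 1, 3 and 6, with a 95% interval of 0.09 to 0.69 at day 6 (taken from the SE and, unlike p, not adjusted for the number of genes). No strain comparison of bas-1 was called, and the log2 fold changes lay between -0.09 and 0.28. From day 3 to day 6 it was lower in wild type animals on krill oil (-0.38 ± 0.10, adjusted p = 0.0251) and in PD controls (-0.33 ± 0.11, adjusted p = 0.0187). Neither held throughout, since the change on krill oil was lost without wild type krill oil day 6 replicate 1 or 2 (adjusted p = 0.106 and 0.0707) or day 3 replicate 3 (adjusted p = 0.0687), and that in control without PD control day 6 replicate 2 or 3 (adjusted p = 0.0818 and 0.0833) or day 3 replicate 2 or 3 (adjusted p = 0.0754 and 0.0516).

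Tyrosine hydroxylase, the step that only dopaminergic neurons carry out, is encoded by cat-2, whose counts limited every test of it. It passed the filter in 11 of the 27 comparisons, and in the pairwise ones only where PD animals of day 3 or wild type controls of day 6 supplied the counts. Wild type animals of day 6 had 3, 7 and 12 counts with krill oil, against 24, 20 and 25 counts in control. In CPM these were 0.115, 0.263 and 0.446 against 0.985, 0.744 and 1.12, with no overlap, and the log2 fold change was -1.74 ± 0.37, adjusted p = 0.000986. PD controls of day 6 had 13, 9 and 9 counts, against the same wild type controls (-1.11 ± 0.29, adjusted p = 0.00253), which was not called by DESeq2 (-0.94, adjusted p = 0.1). Wild type controls of day 3 had 6, 6 and 7 counts, so that day 6 was higher by 2.05 ± 0.30, adjusted p = 0.00011. These 3 results rest on the same 3 libraries, the wild type controls of day 6. Without their counts cat-2 would not have passed the filter in any of these tests, so the filter favoured the direction of all 3, and its values there are a description.

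In PD animals krill oil made no detectable difference to cat-2 at this depth. Summed over 3 libraries it had 14, 35 and 21 counts with krill oil at day 1, 3 and 6, against 21, 39 and 31 in control. Scaled to library size the ratios of krill oil to control were 0.877 (95% interval 0.413 to 1.81), 0.918 (0.565 to 1.49) and 0.611 (0.334 to 1.10), where exact intervals of the summed counts cover counting error only. All 3 intervals include 1, and only day 3 could be tested (-0.12 ± 0.44, adjusted p = 0.846). PD controls of day 3 had 39 counts, against 19 in wild type controls, a ratio of 2.38 (1.34 to 4.36) that was not tested across all genes because cat-2 did not pass the filter there.

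The vesicular monoamine transporter gene cat-1 was called with krill oil only in wild type animals of day 6. They had 0.841, 0.488 and 0.707 CPM with krill oil (22, 13 and 19 counts), against 1.60, 1.23 and 1.39 CPM in control (39, 33 and 31 counts), a log2 fold change of -1.04 ± 0.24, adjusted p = 0.00209. PD animals of day 6 had 0.532, 0.569 and 0.633 CPM with krill oil, against 0.401, 0.196 and 0.366 CPM in control. The PD diets did not overlap, but with 13, 18 and 17 counts against 11, 5 and 8 counts the change of 0.88 ± 0.35, adjusted p = 0.0735 did not pass, and its 95% interval was 0.19 to 1.56. The krill oil effect differed between the strains at day 6 by 1.90 ± 0.42, adjusted p = 0.0014. Group means of the PD controls were 0.748 ± 0.0800, 0.938 ± 0.138 and 0.321 ± 0.110 CPM at day 1, 3 and 6, and those of wild type controls 0.699 ± 0.146, 0.622 ± 0.195 and 1.41 ± 0.187 CPM. From day 3 to day 6 cat-1 therefore moved in opposite directions, with -1.52 ± 0.31, adjusted p = 0.000595 in PD and 1.10 ± 0.25, adjusted p = 0.00211 in wild type controls. Genes of other neurons also fell in that step of the PD controls, where 72.3% of all genes were called. There 14 of 16 pan-neuronal genes were lower and 1 higher (median -0.59), 8 of 10 ciliated sensory neuron genes were lower (median -1.15) and 3 of 3 tested GABAergic genes were lower (median -1.56), and their part in the fall of cat-1 was not tested. At day 6 it was lower in PD than in wild type controls (-2.04 ± 0.29, adjusted p = 1.21e-05), and no such difference was called on krill oil (-0.22 ± 0.30, adjusted p = 0.882).

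With krill oil cat-1 was higher at day 3 than at day 1 in PD animals (1.01 ± 0.39, adjusted p = 0.0491) and in wild type animals (1.22 ± 0.37, adjusted p = 0.029), both on few counts. The PD call was lost without krill oil day 3 replicate 1, 2 or 3 (adjusted p = 0.0789, 0.131 and 0.09) or day 1 replicate 1 or 2 (adjusted p = 0.0936 and 0.139), and the wild type call without krill oil day 3 replicate 2 or 3 (adjusted p = 0.0567 and 0.109) or day 1 replicate 2 or 3 (adjusted p = 0.0844 and 0.0856). DESeq2 called neither (0.98, adjusted p = 0.165 in PD and 1.22, adjusted p = 0.0858 in wild type animals). In wild type animals of day 3 krill oil gave 0.91 ± 0.33, adjusted p = 0.0574, which was called in the fit of all 36 libraries (adjusted p = 0.0185).

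The dopamine transporter gene dat-1, whose promoter also drives the transgenes of the PD strain, did not pass with krill oil in PD animals at any day. They had 1.27, 0.790 and 0.633 CPM with krill oil at day 6, against 0.693, 0.469 and 0.869 CPM in control (0.43 ± 0.34, adjusted p = 0.339). The 95% intervals were -0.45 to 0.60 at day 1, -0.42 to 0.54 at day 3 and -0.23 to 1.10 at day 6. Changes within these intervals could not be resolved at this depth. The same gene fell in wild type animals of day 6, with 1.41, 1.05 and 1.41 CPM on krill oil, against 2.17, 2.53 and 2.24 CPM in control (-0.83 ± 0.18, adjusted p = 0.00115). The diets did not overlap, and the strains differed in the effect by 1.25 ± 0.37, adjusted p = 0.00947, a call lost with DESeq2 (1.07, adjusted p = 0.058).

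In PD controls dat-1 averaged 1.19 ± 0.296, 1.76 ± 0.116 and 0.677 ± 0.201 CPM at day 1, 3 and 6, and in wild type controls 0.771 ± 0.139, 0.921 ± 0.326 and 2.32 ± 0.188 CPM. It was thus lower at day 6 than at day 3 in PD controls (-1.36 ± 0.24, adjusted p = 0.000158), as were 14 of 16 pan-neuronal genes, whose part in this was not tested, and higher in wild type controls (1.27 ± 0.23, adjusted p = 0.000472). At day 6 the PD controls stood below the wild type controls (-1.72 ± 0.22, adjusted p = 3.91e-06), with no overlap. At day 3 they stood above them (0.91 ± 0.25, adjusted p = 0.0173), which was lost without PD control replicate 1 (adjusted p = 0.0502) or 2 (adjusted p = 0.0569). The rise of dat-1 from day 1 to day 3 in PD controls (0.57 ± 0.21, adjusted p = 0.0421) was lost without PD control day 3 replicate 1, 2 or 3 (adjusted p = 0.0886, 0.112 and 0.0603) or day 1 replicate 2 or 3 (adjusted p = 0.0716 and 0.148), and DESeq2 did not call it (adjusted p = 0.212). On krill oil the PD level at day 6 was set against that at day 3 with -1.05 ± 0.35, adjusted p = 0.0573, which was called when only all-zero genes were removed (adjusted p = 0.00126) and with all 36 libraries in 1 fit (adjusted p = 0.00409). On krill oil the strains were not shown to differ in dat-1 at any day, with 0.39 ± 0.26, adjusted p = 0.432, 0.60 ± 0.31, adjusted p = 0.248 and -0.53 ± 0.28, adjusted p = 0.588.

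**Figure D3:**
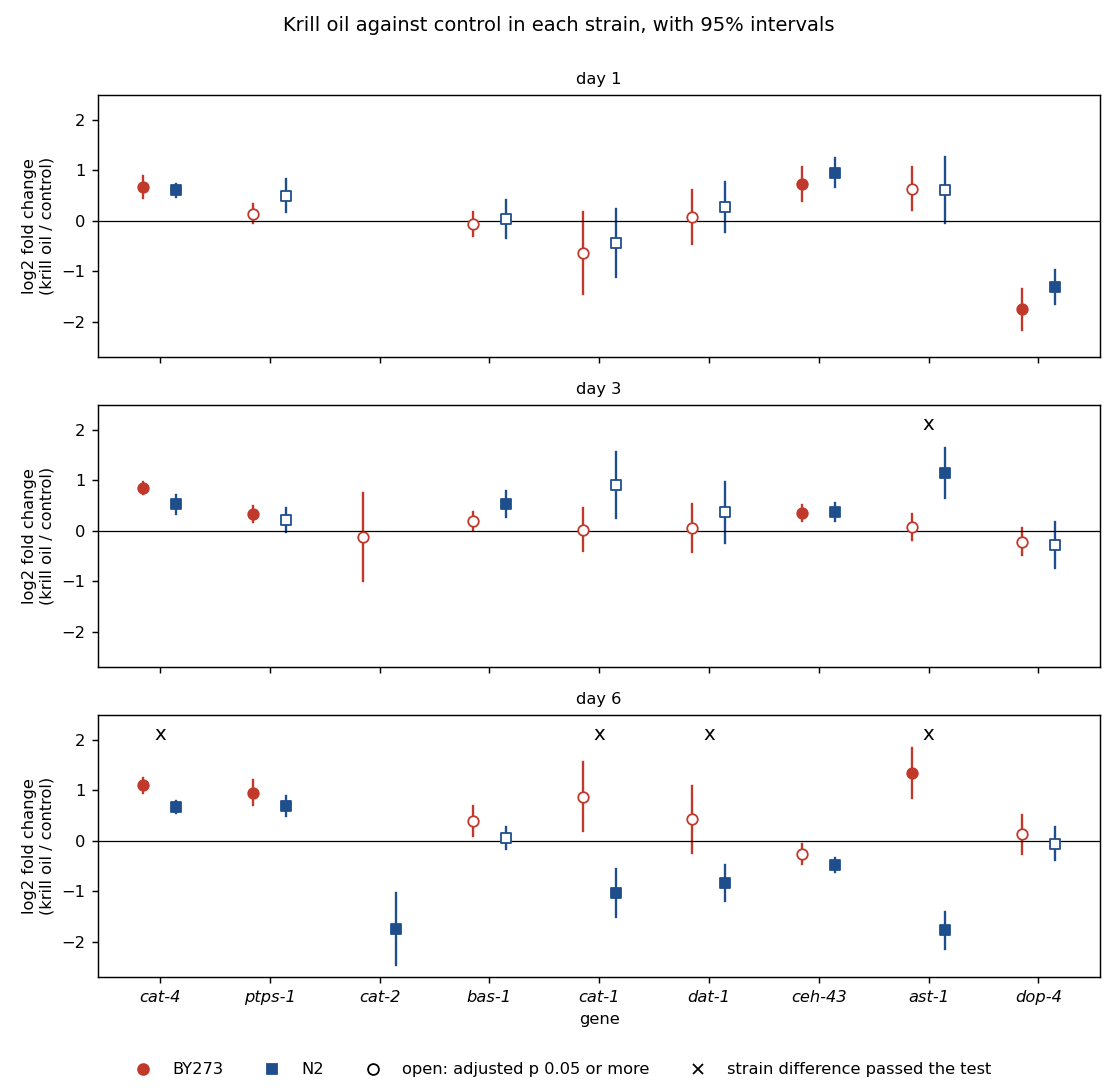
Log2 fold change of each gene with krill oil against control at day 1, 3 and 6 (95% intervals as bars), PD animals (BY273) left of wild type animals (N2), filled where the adjusted p was under 0.05, with an x where the difference between the strains passed the test. At day 6 the intervals of ast-1 and cat-1 lie on opposite sides of 0 in the strains, although the PD point of cat-1 is open. Those of dat-1 do not overlap, while those of cat-4 and ptps-1 lie above 0 in both strains.

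The homeobox gene ceh-43, which is also active in the epidermis during development, rose with krill oil at day 1 and day 3 in both strains. At day 1 it had 15.8, 11.2 and 9.29 CPM in PD animals on krill oil, against 6.96, 7.72 and 7.36 CPM in control (0.74 ± 0.17, adjusted p = 0.0141). Wild type animals had 11.2, 16.2 and 13.3 CPM with krill oil, against 7.44, 6.67 and 6.92 CPM in control (0.95 ± 0.15, adjusted p = 0.00866). No krill oil library overlapped with the controls, although the PD call was lost without PD control replicate 1 (adjusted p = 0.0558). At day 3 the rise was smaller, 0.35 ± 0.08, adjusted p = 0.00419 in PD and 0.37 ± 0.09, adjusted p = 0.0126 in wild type animals, where the wild type call was lost without wild type control replicate 1 (adjusted p = 0.0569) and with DESeq2 (adjusted p = 0.0565). At day 6 ceh-43 was lower with krill oil in wild type animals, at 17.9, 18.8 and 18.2 CPM against 24.6, 27.7 and 24.8 CPM (-0.48 ± 0.07, adjusted p = 6.32e-05). In PD animals of day 6 it was -0.26 ± 0.10, adjusted p = 0.0663, which DESeq2 called (-0.34, adjusted p = 0.0355). The effect at day 6 was below that at day 3 in PD animals (-0.64 ± 0.19, adjusted p = 0.0144) and in wild type animals (-0.86 ± 0.15, adjusted p = 0.000146), and in wild type animals that at day 3 was below that at day 1 (-0.59 ± 0.15, adjusted p = 0.00992). The strains were not shown to differ in the krill oil effect at any day.

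The control levels of ceh-43 climbed with age in both strains. PD controls averaged 7.35 ± 0.378, 15.8 ± 1.39 and 15.9 ± 1.36 CPM at day 1, 3 and 6, and wild type controls 7.01 ± 0.389, 9.66 ± 0.542 and 25.7 ± 1.75 CPM. In PD controls the rise came before day 3 (1.10 ± 0.09, adjusted p = 1.01e-06) with 0.03 ± 0.08, adjusted p = 0.754 after it, and in wild type controls most of it came between day 3 and day 6 (1.38 ± 0.08, adjusted p = 1.87e-07). The earlier wild type step (0.47 ± 0.11, adjusted p = 0.026) was lost without wild type control day 3 replicate 1, 2 or 3 (adjusted p = 0.0747, 0.0853 and 0.0794) or day 1 replicate 1 or 2 (adjusted p = 0.0595 and 0.099). On krill oil the PD level went up to day 3 (0.73 ± 0.16, adjusted p = 0.00299) and down by day 6 (-0.64 ± 0.10, adjusted p = 0.00241), and the wild type level rose by day 6 (0.56 ± 0.08, adjusted p = 0.000674). PD animals accordingly had more ceh-43 than wild type animals at day 3, by 0.68 ± 0.08, adjusted p = 0.000695 on krill oil and 0.70 ± 0.09, adjusted p = 0.000316 in control. In control at day 6 they had less (-0.63 ± 0.08, adjusted p = 3.04e-06). The day 6 difference on krill oil (-0.49 ± 0.09, adjusted p = 0.037) was lost in 5 of the 6 fits that left out a library, which were those without PD krill oil replicate 1 or 2 (adjusted p = 0.0528 and 0.0794) or wild type krill oil replicate 1, 2 or 3 (adjusted p = 0.192, 0.198 and 0.183).

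The ETS factor gene ast-1 gave the largest difference between the strains in the krill oil effect. In PD animals of day 6 it had 2.21, 1.42 and 1.64 CPM with krill oil, against 0.583, 0.704 and 0.824 CPM in control (1.35 ± 0.25, adjusted p = 0.00298). Wild type animals of day 6 had 0.879, 0.938 and 1.08 CPM with krill oil, against 2.87, 3.90 and 3.14 CPM in control (-1.77 ± 0.19, adjusted p = 3.01e-06). Krill oil libraries were all above control in PD animals and all below it in wild type animals, and the effects differed by 3.09 ± 0.30, adjusted p = 2.54e-06. At day 3 krill oil raised ast-1 in wild type animals (1.15 ± 0.25, adjusted p = 0.00668, 5.03, 4.07 and 2.43 CPM against 1.88, 1.81 and 1.52 CPM), with a change of 0.08 ± 0.13, adjusted p = 0.669 in PD animals. The strains differed in this effect (-1.08 ± 0.29, adjusted p = 0.0334), which was not called with the replicate number as a block (adjusted p = 0.0532) or with all 36 libraries in 1 fit (adjusted p = 0.0515). At day 1 neither strain passed (0.64 ± 0.22, adjusted p = 0.0791 in PD and 0.62 ± 0.33, adjusted p = 0.347 in wild type animals).

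Over adult life ast-1 peaked at day 3 in PD animals on both diets. PD means with krill oil were 1.81 ± 0.388, 3.66 ± 0.353 and 1.76 ± 0.406 CPM at day 1, 3 and 6, and those in control 1.17 ± 0.0693, 3.47 ± 0.473 and 0.704 ± 0.120 CPM. In control the rise was 1.55 ± 0.17, adjusted p = 1.59e-05 and the fall -2.28 ± 0.20, adjusted p = 3.17e-07, and with krill oil they were 1.01 ± 0.18, adjusted p = 0.000865 and -1.07 ± 0.19, adjusted p = 0.00518. Wild type animals on krill oil also fell from day 3 to day 6 (-1.97 ± 0.27, adjusted p = 0.000809), whereas wild type controls rose (0.91 ± 0.17, adjusted p = 0.000596). Set against wild type controls, PD controls had 2.00-fold as much ast-1 at day 3 (1.00 ± 0.16, adjusted p = 0.00157) and 0.213-fold as much at day 6 (-2.18 ± 0.20, adjusted p = 1.46e-07). The 12 molting and larval cuticle genes had a summed level of 316 to 794 CPM in PD animals on krill oil at day 6, against 83.0 to 106 CPM in their controls, and of 485 to 521 CPM in wild type animals on krill oil, against 612 to 623 CPM in their controls. All 12 rose with krill oil in PD animals of day 6 (36.9% of all genes called), and 6 of 12 fell and 4 rose in wild type animals (63.5% of all genes called). The part of these genes in the changes of ast-1 and ceh-43 was not tested.

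The D1-like dopamine receptor gene dop-4 fell with krill oil at day 1 in both strains and was not called at later days. At day 1 it had 1.53, 1.62 and 1.01 CPM in PD animals on krill oil, against 5.06, 3.86 and 5.32 CPM in control (-1.75 ± 0.21, adjusted p = 0.000209). Wild type animals had 1.29, 1.67 and 1.46 CPM with krill oil, against 3.44, 3.82 and 3.67 CPM in control (-1.30 ± 0.17, adjusted p = 0.00467). The diets did not overlap in either strain, and the effects were not shown to differ between the strains (-0.46 ± 0.28, adjusted p = 0.713). At day 3 and day 6 the log2 fold changes were -0.21 ± 0.14, adjusted p = 0.284 and 0.13 ± 0.20, adjusted p = 0.625 in PD and -0.28 ± 0.23, adjusted p = 0.368 and -0.05 ± 0.17, adjusted p = 0.799 in wild type animals. The effect was weaker at day 3 than at day 1 by 1.54 ± 0.25, adjusted p = 0.000187 in PD and by 1.03 ± 0.25, adjusted p = 0.00774 in wild type animals. The control level of PD animals was lower at day 3 than at day 1 (-1.004 ± 0.15, adjusted p = 0.000179), and that of wild type animals was -0.69 ± 0.21, adjusted p = 0.0693. The smaller later fall of PD controls (-0.42 ± 0.16, adjusted p = 0.0329) was lost without PD control day 6 replicate 1 or 2 (adjusted p = 0.0546 and 0.102) or day 3 replicate 2 or 3 (adjusted p = 0.0717 and 0.0765), and the rise of PD animals on krill oil to day 3 (0.55 ± 0.20, adjusted p = 0.0411) without krill oil day 3 replicate 1, 2 or 3 (adjusted p = 0.061, 0.111 and 0.0948) or day 1 replicate 3 (adjusted p = 0.131). Strain comparisons of dop-4 gave no call, with log2 fold changes of -0.08 to 0.37.

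PD animals were also set against wild type animals on the same diet and day. At day 1 none of the 8 tested genes was called by edgeR either on krill oil, where 3.57% of all genes were called, or in control (6.87% of all), while ptps-1 and ast-1 on krill oil and ptps-1 and dop-4 in control had an unadjusted p under 0.05, 2 genes each. DESeq2 called 0 genes on krill oil and 1 in control, ptps-1 (0.66, adjusted p = 0.0106), for which edgeR gave 0.66 ± 0.17, adjusted p = 0.0611. On krill oil 2 of 8 genes were called at day 3 (13.7% of all) and 2 of 8 at day 6 (1.19% of all). In control 5 of 8 genes were called at day 3 (38.7% of all) and 6 of 9 at day 6 (81.5% of all), cat-2 among the 6 with its direction favoured by the filter. On krill oil at day 6 cat-4 and ceh-43 differed while few genes did, but the ceh-43 call was lost in 5 of the 6 fits that left out a library. In control at day 6 most genes tested differed between the strains. Median log2 fold changes were 0.07 for the genes tested and 0.01 for all genes on krill oil at day 6, and -0.63 and -0.15 in control.

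With age, 6 of 8 tested genes were called in PD animals on krill oil from day 1 to day 3 (52.9% of all genes) and 2 of 8 from day 3 to day 6 (21.8% of all). In PD controls 6 of 8 (55.9% of all) and 6 of 9 (72.3% of all) were called. In wild type animals on krill oil the counts were 3 of 8 (39.9% of all) and 5 of 8 (22.8% of all), and in wild type controls 1 of 8 (15% of all) and 6 of 9 (71.6% of all). From day 3 to day 6 all 6 calls in PD controls were falls, where 37.7% of all genes tested were called lower, and 5 of the 6 in wild type controls were rises (39% of all called higher), cat-4 being the exception and the filter having favoured the rise of cat-2.

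The krill oil effect itself differed between the strains for 0 of 8 tested genes at day 1 (0.0897% of all genes), 1 of 9 at day 3 (9.6% of all) and 4 of 9 at day 6 (59.6% of all). In the same day 6 difference 14 of 16 pan-neuronal genes, 8 of 10 ciliated sensory neuron genes and all 6 further dopamine receptor genes were called higher (medians 1.22, 1.37 and 1.43), it uses the wild type controls of day 6, and the part of these genes in it was not tested. Only 5 of these receptor genes passed the filter with krill oil in PD animals of day 6. At day 1 edgeR gave 0 genes with an unadjusted p under 0.05 and DESeq2 called 0. Between day 1 and day 3 the effect differed for 1 of 9 genes in PD animals (19.1% of all; 2 genes without krill oil day 1 replicate 3) and 3 of 9 in wild type animals (23.9% of all). Between day 3 and day 6 it differed for 3 of 9 (33.2% of all) in PD and 6 of 9 (51.9% of all) in wild type animals, where 15 of 16 pan-neuronal genes were called lower (median -1.07). The wild type calls include cat-2, whose value there is a description.

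For day 6, 3 of the pairwise comparisons above use the wild type controls, in which genes of all neurons stood high. The 16 pan-neuronal markers summed to 669 to 702 CPM in wild type controls of day 6 and to 415 to 564 CPM over the other 33 libraries. Of them 15 fell and 0 rose with krill oil in wild type animals of day 6, and 15 fell and 1 rose in PD against wild type controls, and 14 rose and 0 fell from day 3 to day 6 in wild type controls. Genes of ciliated sensory neurons, a class that includes the dopaminergic neurons, summed to 42.0 to 44.9 CPM there, against at most 26.3 CPM in wild type animals of day 6 on krill oil, and 8 of 10 fell with it. The nearest other group, PD animals on krill oil at day 3, summed to 37.1 to 40.3 CPM for this list. None of the pan-neuronal or ciliated markers was at 0 in all libraries of a group. Without wild type control day 6 replicate 3 the called genes of the 3 comparisons were the same 7, 6 and 6, cat-2 among them each time with its direction favoured by the filter. With krill oil in wild type animals the values were then -1.05 for cat-1, -0.87 for dat-1, -0.52 for ceh-43 and -1.81 for ast-1. The strain difference of the krill oil effect at day 6 was likewise called for 4 genes, at 1.81 for cat-1, 1.18 for dat-1, 0.37 for cat-4 and 3.04 for ast-1.

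**Figure D4:**
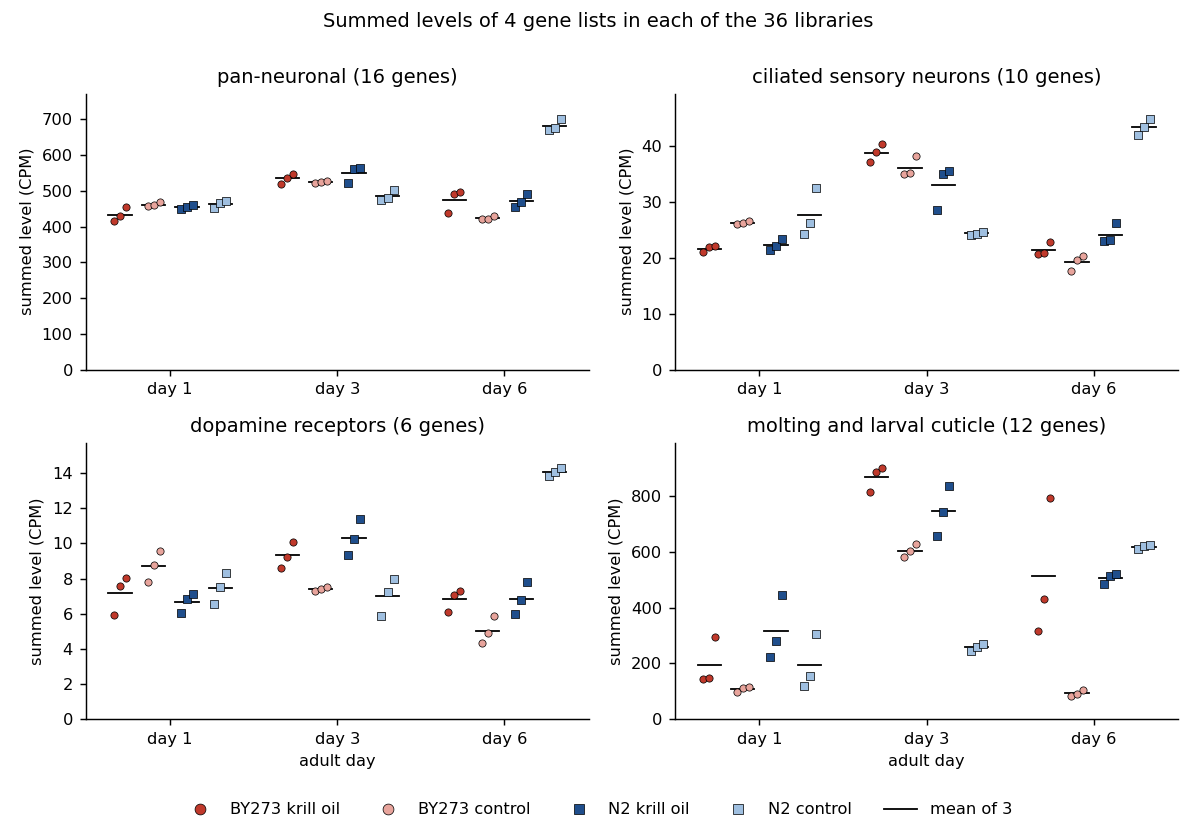
Summed levels in CPM (vertical axes start at 0) of pan-neuronal, ciliated sensory neuron, dopamine receptor and molting genes, with a point for each library, drawn from low to high within a group, and a line for the mean of 3. Wild type controls of day 6 are highest for the pan-neuronal list, at 669 to 702 CPM, and for the dopamine receptors, at 13.9 to 14.3 CPM.

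With libraries scaled by the 16 pan-neuronal genes in place of all genes, the values of the tested genes moved up by a median of 0.52 for krill oil in wild type animals of day 6 and by 0.62 for PD against wild type controls of day 6, and down by 0.46 from day 3 to day 6 in wild type controls. On this scale the fall with krill oil of ast-1 (-1.24, adjusted p = 1.38e-06) in wild type animals was still called, and those of cat-1 (-0.51, adjusted p = 0.0699), dat-1 (-0.31, adjusted p = 0.137) and ceh-43 (0.05, adjusted p = 0.66) were not. Between PD and wild type controls of day 6, cat-1 (-1.43, adjusted p = 0.000144), dat-1 (-1.10, adjusted p = 7.66e-05) and ast-1 (-1.56, adjusted p = 1.1e-07) were still called lower, while ceh-43 (-0.01, adjusted p = 0.924) was not. The rises of cat-1, dat-1, ceh-43 and ast-1 from day 3 to day 6 in wild type controls were all still called, at 0.64, 0.82, 0.92 and 0.45. For cat-2, whose direction the filter favoured, the 3 values on this scale were -1.22, adjusted p = 0.00399, -0.49, adjusted p = 0.153 and 1.60, and nothing is read from them. The rise of cat-4 with krill oil was called on this scale in all 6 comparisons, at 0.36 to 1.20.

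**Figure D5:**
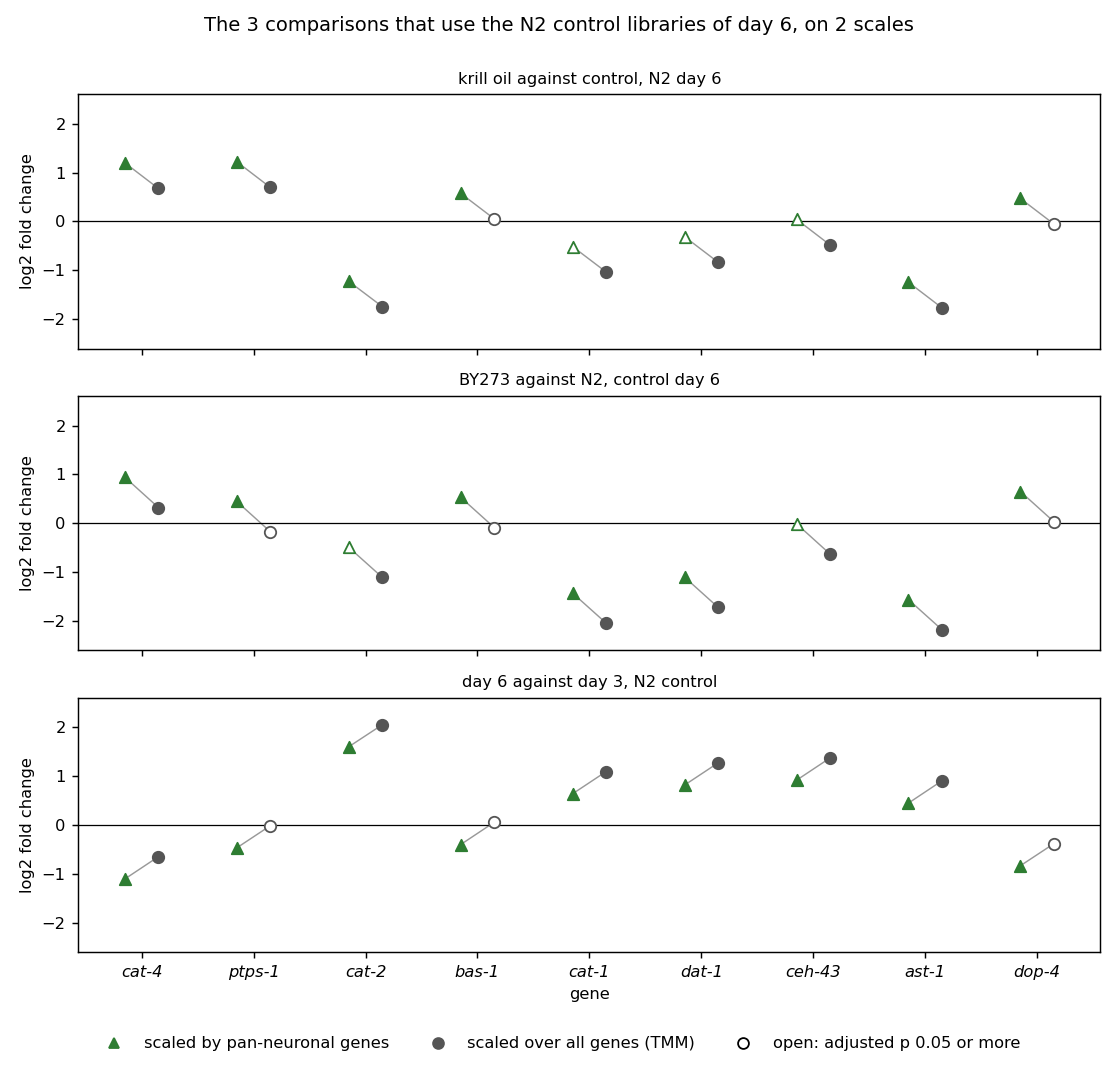
Log2 fold changes in the 3 pairwise comparisons that use wild type (N2) controls of day 6, scaled by 16 pan-neuronal genes (triangles) and over all genes (circles), open where the adjusted p was 0.05 or more. With krill oil in wild type animals ast-1 stays below 0 and filled on both scales, whereas cat-1 and dat-1 become open and ceh-43 moves to 0.05. The count filter favoured the direction of cat-2 in all 3 panels.

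Other genes of dopamine signalling moved in the same comparisons of day 6. All 6 further dopamine receptor genes (dop-1, dop-2, dop-3, dop-5, dop-6 and the dopamine-gated channel lgc-53) fell with krill oil in wild type animals of day 6, where 63.5% of all genes were called and 15 of 16 pan-neuronal genes fell. All 6 were lower in PD than in wild type controls of day 6 (81.5% of all called, 15 of 16 pan-neuronal genes lower), and all 6 rose from day 3 to day 6 in wild type controls (71.6% of all called, 14 of 16 pan-neuronal genes higher). Only 5 of the 6 passed the filter with krill oil in PD animals of day 6 and between the strains on krill oil at day 6. A receptor gene left out there passed in both falls through the counts of wild type controls of day 6. The filter thus favoured its direction. The D1-like receptor gene dop-1 had 1.18, 0.938 and 1.26 CPM in wild type animals on krill oil, against 2.83, 2.53 and 2.24 CPM in control (-1.16 ± 0.18, adjusted p = 0.000104). The D2-like receptor gene dop-2 fell there (-0.83 ± 0.15, adjusted p = 0.000257), dop-5 fell beside it (-1.12 ± 0.22, adjusted p = 0.000653), and dop-6 had the most negative value of the 6 in PD against wild type controls of day 6 (-2.68 ± 0.30, adjusted p = 1.17e-06). With krill oil in PD animals 0 of 6 were called at day 1, 1 of 6 at day 3 and 1 of 5 at day 6, both higher (15.5%, 41.2% and 36.9% of all genes called).

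Enzymes that use or recycle tetrahydrobiopterin gave both directions. Of tph-1, pah-1, agmo-1, pcbd-1 and qdpr-1, krill oil raised 0 and lowered 2 of 3 tested in PD animals of day 1, raised 1 and lowered 1 of 4 at day 3 and raised 2 of 4 at day 6 (15.5%, 41.2% and 36.9% of all genes called). Among wild type animals 0 of 4, 1 of 4 and 0 of 5 rose at day 1, 3 and 6, and 4 of 5 fell at day 6 (7.36%, 36.1% and 63.5% of all genes called). Only 4 of the 5 passed the filter between the strains on krill oil at day 6. A gene left out there entered the wild type test of day 6 through the control counts, so the filter favoured its direction. The alkylglycerol monooxygenase gene agmo-1 rose in PD animals of day 3, at 6.25, 7.25 and 5.67 CPM with krill oil against 2.84, 2.49 and 2.70 CPM in control (1.25 ± 0.13, adjusted p = 8.58e-06). The phenylalanine hydroxylase gene pah-1 fell in wild type animals of day 6 (-0.44 ± 0.06, adjusted p = 2.6e-05), and the dihydropteridine reductase gene qdpr-1, which regenerates the cofactor, fell in PD animals of day 1 (-0.38 ± 0.06, adjusted p = 0.00161).

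Genes of the amx and comt families, listed for the breakdown of monoamines, were raised by krill oil in PD animals in 1 of 5, 2 of 6 and 4 of 7 tested at day 1, 3 and 6, and 1, 0 and 1 fell. In these comparisons 15.5%, 41.2% and 36.9% of all genes were called in either direction. Of the breakdown genes, the catechol-O-methyltransferase family gene comt-4 had 2.58, 3.04 and 2.93 CPM with krill oil, against 0.584, 0.613 and 0.457 CPM in control at day 3 (2.34 ± 0.19, adjusted p = 9.85e-07), and comt-5 rose beside it (2.03 ± 0.25, adjusted p = 3.6e-05). At day 6 comt-3 rose (1.02 ± 0.16, adjusted p = 0.00102). Among wild type animals 0 of 5, 3 of 6 and 1 of 7 of the listed genes rose at day 1, 3 and 6, and 0, 0 and 1 fell. There 7.36%, 36.1% and 63.5% of all genes were called. The monoamine oxidase family gene amx-2 was lower in PD than in wild type controls of day 6 (-1.21 ± 0.10, adjusted p = 3.59e-08). For serotonin, tyramine and octopamine the serotonin transporter gene mod-5 fell with krill oil in wild type animals of day 6 (-1.10 ± 0.17, adjusted p = 8.35e-05), as dat-1 did, while the tyrosine decarboxylase gene tdc-1 rose (0.26 ± 0.04, adjusted p = 4.92e-05), and tbh-1, for tyramine beta-hydroxylase, fell in PD animals of day 3 (-0.26 ± 0.03, adjusted p = 6.38e-06).

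Of 5 other regulators of dopaminergic neurons (ceh-20, ceh-40, unc-62, vab-3 and lin-32), krill oil raised 2 and lowered 0 at day 1, lowered 2 and raised 0 at day 3 and raised 2 and lowered 0 at day 6 in PD animals (15.5%, 41.2% and 36.9% of all genes called). In wild type animals it raised 2 and lowered 0 at day 1, raised 1 and lowered 0 at day 3, and lowered all 5 at day 6, where 63.5% of all genes were called. There vab-3, the PAX6 homologue, had 5.77, 5.59 and 5.58 CPM on krill oil, against 11.3, 13.5 and 12.3 CPM in control (-1.13 ± 0.10, adjusted p = 5.67e-07). The homeobox genes unc-62 (-0.49 ± 0.05, adjusted p = 8.91e-07) and ceh-20 (-0.46 ± 0.07, adjusted p = 5.79e-05) fell beside it. Of the channel genes of dopaminergic neurons, trp-4 fell with krill oil in wild type animals of day 6 (-0.60 ± 0.18, adjusted p = 0.0115) and asic-1 was lower in PD than in wild type controls of day 6 (-1.39 ± 0.24, adjusted p = 0.0001). Neither trp-4 nor asic-1 was called with krill oil in PD animals.

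For each gene the 3 genes with the most similar profile over the 36 libraries were found by Pearson's r of log2 CPM among 12319 genes (12320 for cat-1 and cat-2) with a mean of at least 1 CPM. These libraries share their groups of strain, diet and day, so the likeness carries no test. The cofactor gene cat-4 was most like B0395.3 (0.915), hadb-1 (0.912) and decr-1.1 (0.910), and ptps-1 was most like K11D12.7 (0.829), ttr-16 (0.828) and hrg-7 (0.823). For ast-1 they were syd-9 (0.964), col-121 (0.949) and zag-1 (0.948), and for ceh-43 cht-1 (0.956), igcm-4 (0.952) and mls-2 (0.949). The transporter gene dat-1 was most like aex-3 (0.830), pan-1 (0.829) and Y56A3A.6 (0.824), and cat-1 was most like rhgf-1 (0.843), mec-9 (0.824) and sue-1 (0.823). The receptor gene dop-4 was most like msra-1 (0.877), pmp-5 (0.872) and F21C10.9 (0.858), and bas-1 most like R193.2 (0.791), R07E5.4 (0.781) and mnr-1 (0.778). At its low counts cat-2 reached only 0.684 with iglr-1, 0.670 with madf-10 and 0.644 with T25D10.4.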

How the data were processed

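RNA-seq was done on whole animals of 2 strains, 2 diets and 3 adult days (36 libraries). The authors aligned rRNA-depleted reads with STAR 2.7.10a to WBcel235, removed duplicates by molecular identifier and deposited raw counts per gene, 1 file per library; the counting program and its use of strand are not given in the sources used here. Groups came from the labels. Identifiers were matched to annotation release 115 (46603 of 46778), and symbols were taken from it (43818). Genes were filtered with filterByExpr, scaled by TMM and tested in R 4.3.3 with edgeR 4.0.16 (quasi-likelihood), pairwise on the 6 libraries compared, or with an interaction term on 12 or 18 libraries. There were 27 comparisons, with Benjamini-Hochberg adjustment over all genes tested. The procedure was tested on simulated data. Alternatives were DESeq2 1.42.0, RLE factors, removal of all-zero genes only, a replicate block, all 36 libraries in 1 fit, scaling by pan-neuronal genes and leaving out each library. All 9 genes are reported; further pathway genes are those called with the smallest p, up to 3 per list and kind of comparison, and like genes the 3 with the highest r. Genes and lists were chosen with earlier results of these data known. Replicate pairs within groups all differed beyond sampling noise (chi-square per degree of freedom 3.32 to 266, the highest in the groups of the 2 libraries named as standing apart). Leaving these 2 out of the interaction fits was chosen after seeing the data. Count intervals cover counting error only.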

Additional observations from a re-analysis of the deposited data

Results flagged for a closer look

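All 18 results below were picked out because the krill oil effect itself, the log2 fold change of krill oil over control, differed between strains or between days in a test of that difference (edgeR, n = 3 libraries per group). Values are differences in log2 fold change ± SE.

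Between the strains, as PD minus wild type animals, ast-1 differed at day 3 by -1.08 ± 0.29 (adjusted p = 0.0334) and at day 6 by 3.09 ± 0.30 (adjusted p = 2.54e-06), so that the sign of its difference turned between these days. The day 3 call was lost with the replicate number as a block and with all libraries in a single fit. At day 6 the differences were 1.90 ± 0.42 for cat-1 (adjusted p = 0.0014), 1.25 ± 0.37 for dat-1 (adjusted p = 0.00947) and 0.41 ± 0.10 for cat-4 (adjusted p = 0.00267). DESeq2 called neither the dat-1 nor the cat-4 difference. For cat-4 krill oil raised the level in both strains and more in PD animals, whereas dat-1 and cat-1 were called only in wild type animals, in which they fell. Neuronal genes moved with these day 6 differences: 14 of 16 pan-neuronal, 8 of 10 ciliated sensory neuron and 6 of 6 further dopamine receptor genes were called higher in the same test (medians 1.22, 1.37 and 1.43), where 59.6% of all genes were called in either direction. The median of all genes tested was 0.22. Only 5 of these receptor genes passed the filter with krill oil in PD animals of day 6. The day 6 differences also rest on the wild type controls of day 6, in which pan-neuronal genes stood high, and the part of that in them was not tested.

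Between day 3 and day 1, as the later minus the earlier day, dop-4 differed by 1.54 ± 0.25 in PD animals (adjusted p = 0.000187) and by 1.03 ± 0.25 in wild type animals (adjusted p = 0.00774). Without PD krill oil day 1 replicate 3, which stood apart from its group, the PD value was 1.38 (adjusted p = 0.000528), and ceh-43 was called as well (-0.53, adjusted p = 0.036). In wild type animals cat-1 differed by 1.34 ± 0.47 (adjusted p = 0.046), which DESeq2 did not call (adjusted p = 0.0863), and ceh-43 by -0.59 ± 0.15 (adjusted p = 0.00992).

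Between day 6 and day 3, the effect in PD animals differed by 0.59 ± 0.14 for ptps-1 (adjusted p = 0.00463), by -0.64 ± 0.19 for ceh-43 (adjusted p = 0.0144) and by 1.24 ± 0.27 for ast-1 (adjusted p = 0.00248). In wild type animals it differed by -1.96 ± 0.43 for cat-1 (adjusted p = 0.00117), -2.38 ± 0.63 for cat-2 (adjusted p = 0.00456), -1.21 ± 0.34 for dat-1 (adjusted p = 0.0065), 0.47 ± 0.19 for ptps-1 (adjusted p = 0.0461), -0.86 ± 0.15 for ceh-43 (adjusted p = 0.000146) and -2.93 ± 0.41 for ast-1 (adjusted p = 3.07e-05). The wild type values all rest on the controls of day 6, and 15 of 16 pan-neuronal genes were called lower in the same test (median -1.07), whose part in them was not tested. For cat-2 the wild type controls of day 6 held 20 to 25 counts per library, against 3 to 12 in the other groups of this difference. Those counts helped it past the filter, so its value is a description. The wild type ptps-1 call was lost with the replicate number as a block and when only all-zero genes were removed. Without wild type control day 6 replicate 3, which stood apart from its group, the same 6 genes were called in the wild type test and the same 4 in the strain difference of day 6.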

How the results depend on the processing

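Of 2325 values of single genes under the alternatives, 2161 kept their side of the threshold, 107 lost a call, 51 gained one and 6 reversed. A value counted as reversed only if it was called in the main or the alternative setting. Uncalled values that changed sign are thus among the 2161. All 6 reversals came with scaling by pan-neuronal genes, which gave 0.0452 for ceh-43 and 0.47 for dop-4 with krill oil in wild type animals of day 6, 0.53 for bas-1 and 0.45 for ptps-1 in PD against wild type controls of day 6, and from day 3 to day 6 0.27 for cat-4 in PD controls and -0.40 for bas-1 in wild type controls. This scale takes the 16 neuronal genes as constant.

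The number of the 9 genes called moved by over 1.5 times as follows, and the cause was not tested. With all 36 libraries in 1 fit it was 5 in place of 3 for krill oil in PD animals of day 6, 1 in place of 0 for PD against wild type controls of day 1, 3 in place of 1 for day 3 against day 1 in wild type controls, and 0 in place of 1 for the strain difference of the krill oil effect at day 3. With only all-zero genes removed it was 1, 3 and 2 for the last 3 of these. DESeq2 gave 1 for PD against wild type controls of day 1, 2 in wild type controls, 3 in place of 6 in PD animals on krill oil and 1 in place of 3 in wild type animals on krill oil for day 3 against day 1, and 2 in place of 4 for the strain difference of the effect at day 6. Scaling by pan-neuronal genes gave 2 in place of 4 for krill oil in wild type animals of day 3, 1 in place of 2 for PD against wild type animals on krill oil at day 6, 4 in place of 2 for day 6 against day 3 in PD animals on krill oil and 2 in place of 1 for day 3 against day 1 in wild type controls.

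Leaving out 1 library at a time gave 2 to 5 genes for krill oil in wild type animals of day 3, 2 to 7 for PD against wild type controls of day 3 and 0 to 1 of day 1, and 1 to 2 on krill oil at day 3 and at day 6. For day 3 against day 1 it gave 3 to 4 in PD animals on krill oil, 0 to 2 in wild type controls and 1 to 3 in wild type animals on krill oil. For krill oil in wild type animals and for PD against wild type controls at day 6 it gave 7 and 6 throughout. The difference in krill oil effect between day 3 and day 1 in PD animals was called for 2 genes in place of 1 without krill oil day 1 replicate 3.

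Replicate numbers did not pair the samples: correlations of same-numbered samples ran from -0.169 to 0.283, and no comparison had all 3 above 0.1. Every sample correlated best with its own number only in PD against wild type controls of day 1, which is a hint from the data and not the design. With the replicate number as a block the count of called genes was 1 in place of 2 for PD against wild type animals on krill oil at day 6, 3 in place of 6 and 0 in place of 1 for day 3 against day 1 in PD animals on krill oil and in wild type controls, and 0 in place of 1 for the strain difference of the krill oil effect at day 3.

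Depth limits cat-2 most, which was under 10 counts in 22 of 36 libraries and not tested in 16 of 27 comparisons, and then cat-1.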

Other observations

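Genes of other transmitter systems were set beside the 9 genes at day 6. Those of glutamate signalling were eat-4, glr-1 and nmr-1, and since glr-1 and nmr-1 encode receptors, they do not mark glutamatergic neurons as a class. With krill oil in wild type animals, where 63.5% of all genes were called, 5 of 6 cholinergic, 4 of 4 GABAergic and 3 of 3 glutamate signalling genes tested fell, with median log2 fold changes of -0.94, -1.05 and -1.19. In PD animals of day 6, 1 of 5, 3 of 4 and 1 of 3 of them rose with krill oil and 0 fell, with medians of 0.53, 0.97 and 0.52 (36.9% of all genes called). The glial genes hlh-17, ptr-10 and fig-1 were summed as well, of which only 2 passed the filter in either strain at day 6. In PD animals of day 6 they summed to 13.5 to 19.8 CPM with krill oil, against 10.9 to 12.01 CPM in control. In wild type animals of day 6 they summed to 15.5 to 17.6 CPM with krill oil, against 26.6 to 27.9 CPM in control.

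Outside the nervous system, 7 of 8 hypodermal genes rose with krill oil in PD animals of day 6 (median 2.39, 36.9% of all genes called), and 5 of 8 fell and 2 rose in wild type animals (median -0.58, 63.5% of all genes called). Of the sperm genes tested at day 6, 6 of 6 rose with krill oil in PD animals (median 3.57, 36.9% of all genes called). In wild type animals 4 of 7 rose (median 4.02, 63.5% of all genes called). Their mean summed level was 24.6 against 10.1 CPM in PD and 28.9 against 18.96 CPM in wild type animals. In the controls they were low, with a mean log2 CPM of -1.03 in PD and -1.06 in wild type animals. The filter could therefore favour a rise. Among the markers, med-1 and hlh-27 of the embryo list were at 0 in all 3 PD controls of day 6, med-1 also in wild type animals on krill oil, and the sperm gene msp-142 in wild type controls of day 6. In the wild type test of day 6 msp-142 thus passed the filter through the krill oil libraries, which favoured its rise.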
